A study of Homo sapiens with 6 samples.

Results

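Fatty acid oxidation and ketogenesis genes were compared between Hep3B cells with a control guide and Hep3B cells in which RFX6 had been targeted. The members are 39 genes of the carnitine shuttle, the mitochondrial and peroxisomal beta-oxidation spirals, ketone body metabolism, acyl-CoA synthesis, and fatty acid uptake and binding, taken by name from the table of gene counts. Of these, 37 had a row and 36 were tested, among 16720 named rows and 12839 tested genes. ACADL and OXCT1 were not analysed here, and FABP1 was below the filter on low counts.

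Hep3B is a line from a human hepatocellular carcinoma. RNA was sequenced from 3 libraries labelled sgControl, with wild-type genotype, and from 3 libraries labelled sgRFX6, with RFX6 knocked out. In the study's methods, cells received a lentiviral Cas9 vector carrying a guide, were selected with puromycin and were expanded as clones from single cells, so a difference between groups may also be one between clones. Column names of the control libraries give cas where the others give a guide number. The cas libraries were taken as sgControl, since no other control group exists. All sgRFX6 columns carry the same guide number, sg3, so an effect of that guide and loss of RFX6 cannot be told apart. Nothing in the labels says whether the 3 libraries of a group came from separate clones or cultures, so p-values measure only the spread between these libraries.

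Long-chain fatty acids are activated to acyl-CoAs, passed into mitochondria on carnitine, and shortened by 2 carbons in each turn of 4 reactions: dehydrogenation, hydration, a further dehydrogenation and thiolysis. The first dehydrogenation hands its electrons to the electron transfer flavoprotein, and the acetyl-CoA released can enter the citrate cycle or, in hepatocytes, be made into ketone bodies. Peroxisomes run a parallel spiral for very long, branched and bile acid side chains. In liver the nuclear receptor PPAR alpha, bound with RXR to direct repeats, controls many of these genes. RFX6 belongs to the RFX family of factors, which bind a DNA element called the X-box.

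Promoter windows from RefSeq (GRCh38.p14), each holding 250 bases before and 50 after an annotated start, were found for 33 of the 39 members and numbered 52, because some members have more than 1 start. The members without a window were ACAD11, DECR1, ETFDH, ACAA1, ACOX2 and EHHADH. Both strands of each window were searched for 4 elements, of which the CRE and the GC box may lie beside or inside other elements. The X-box, written as GTTGCC, any 2 bases and GGNAAC, was present in 0.362% of all 35116 windows and in 1 of the 52 member windows, that of ACOX3. The direct repeat with 1 base between its repeats, AGGNCANAGGNCA, was present in 0.31% of all windows and in 0 of the members'. The CRE, TGACGTCA, was present in 1.85% of all windows and in 3 of the members', of ACAD9 and ACOX3, and the GC box, GGGCGG, in 45% of all windows and in 31 of the members'. A match is a description of letters and not a binding site.

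The stretches below are printed 5′ to 3′ on the gene's strand. ACOX3 is shown because it alone among the members held the X-box. The stretch lies in the gene at chr4:8428487-8428698 (minus strand), before an internal RefSeq start, and its X-box begins 103 bases before that start, on the opposite strand. ACAD9, a member whose groups did not overlap, is shown at chr3:128879370-128879595 (plus strand) for its CRE. ACSS1, the member that passed the test, is shown as 30 bases at chr20:25058181-25058210 (minus strand), around 2 of the 4 GC boxes in its window, a stretch that 1 longer annotated transcript of ACSS1 includes in its first exon. Capitals mark the X-box, the CRE and the GC box.
ACOX3: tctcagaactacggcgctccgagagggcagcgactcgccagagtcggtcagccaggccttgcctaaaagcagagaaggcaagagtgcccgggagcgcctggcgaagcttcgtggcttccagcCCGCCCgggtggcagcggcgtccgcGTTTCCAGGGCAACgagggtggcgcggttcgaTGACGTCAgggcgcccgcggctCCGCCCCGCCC
ACAD9: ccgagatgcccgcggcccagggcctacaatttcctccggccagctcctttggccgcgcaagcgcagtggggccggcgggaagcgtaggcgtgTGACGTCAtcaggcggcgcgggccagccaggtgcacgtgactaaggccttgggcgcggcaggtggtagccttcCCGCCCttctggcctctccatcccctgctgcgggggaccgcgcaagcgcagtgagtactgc
ACSS1: tggtggcggaaGGGCGGagcagGGGCGGgg

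The libraries held between 16730374 and 25070770 counts. Values are CPM, reads of a gene relative to the size of its library after TMM scaling, and fold changes are sgRFX6 over sgControl. RFX6 itself was at 5.64, 5.83 and 7.34 CPM in sgControl and at 3.43, 3.71 and 3.50 CPM in sgRFX6, so the groups did not overlap, with a log2 fold change of -0.82 and an edgeR adjusted p of 0.142. Levels of a transcript do not show whether its reading frame was disrupted. The 9 hepatocyte markers summed to between 259 and 305 CPM in sgControl and between 204 and 220 CPM in sgRFX6. HNF4A, a transcription factor, held the largest part, at 151 ± 8.30 and 126 ± 14.5 CPM (SD, n = 3). It was lower in sgRFX6 without overlap (edgeR adjusted p = 0.494). ALB, the main plasma protein of liver, was at 20.2 ± 10.4 CPM in sgControl against 22.0 ± 3.90 CPM in sgRFX6 (SD, n = 3), and TTR, another plasma protein, was below 1 CPM in every library. Other hepatocyte markers differed, with AFP 7.08-fold higher in sgRFX6 (edgeR adjusted p = 0.00254), FGB at 0.182 times the level of sgControl (adjusted p = 0.00417) and APOB at 0.407 times, without overlap (adjusted p = 0.116). TF was 2.09-fold higher in sgRFX6, without overlap (edgeR adjusted p = 0.189). The 5 fibroblast markers summed to between 24.5 and 33.1 CPM in sgControl and between 21.3 and 56.2 CPM in sgRFX6, most of it from LUM, and 2 of them fell, COL1A1 to 0.239 times the level of sgControl (edgeR adjusted p = 0.0108) and COL1A2 from 1.87 to 0.136 CPM (adjusted p = 0.00276). The 3 endothelial markers with a row summed to between 11.6 and 13.5 CPM in sgControl and between 13.3 and 19.6 CPM in sgRFX6, nearly all from PECAM1, and KDR had at most 1 count. The 4 leukocyte markers summed to between 73.0 and 158 CPM in sgControl and between 63.9 and 101 CPM in sgRFX6, nearly all from CD68, while CD3E had at most 1 count and LYZ was at 0.453 and 1.84 CPM (edgeR adjusted p = 0.0526). The part of these markers in the members' values was not tested. In bulk RNA, fewer cells with a transcript and less of it per cell cannot be told apart.

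Across the 36 tested members, 22 log2 fold changes were above 0 and 14 below, with a median of 0.11 against 0.02 over all tested genes, and the largest were 1.36 for CD36 and -0.95 for ETFB. In edgeR's quasi-likelihood test, 1 member, ACSS1, rose past an adjusted p of 0.05, which is 2.78% of the members where 1.92% of all tested genes rose. At this threshold 0 members fell, and 3.74% of all genes were called in either direction. At an unadjusted p of 0.05, 7 of 36 members passed, 6 higher and 1 lower, which is 19.4% where 15.6% of all genes did. The share of members called was thus near the share of all genes. The groups did not overlap for 9 members that were higher in sgRFX6, or 25% of them, where 12.0% of all genes behaved in this way, and for 2 that were lower, or 5.56%, where 11.2% did. The list held more higher and fewer lower members of this kind than the background, with no test over the list. For the 9 higher, the median over the 50 nearest tested genes was 0.49 at ACAT1, 0.41 at ACAD8 and 0.38 at CD36. It was 0.34 at ACAD9 and ACAD11, 0.28 at CPT1A and ACAA2, 0.06 at HADH and 0.04 at ACSS1. With each regional median subtracted, edgeR called 1 member, ACSS1, and 362 genes, where the main fit called 1 member and 480 genes. Without sgRFX6 replicate 3, 17 log2 fold changes were above 0 and 19 below. The part of chromosome regions was not tested. The 95% interval lay within 2-fold in either direction for 25 of the 36 members, and for the other 11 a change of 2-fold was not resolved.

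**Figure D1:**
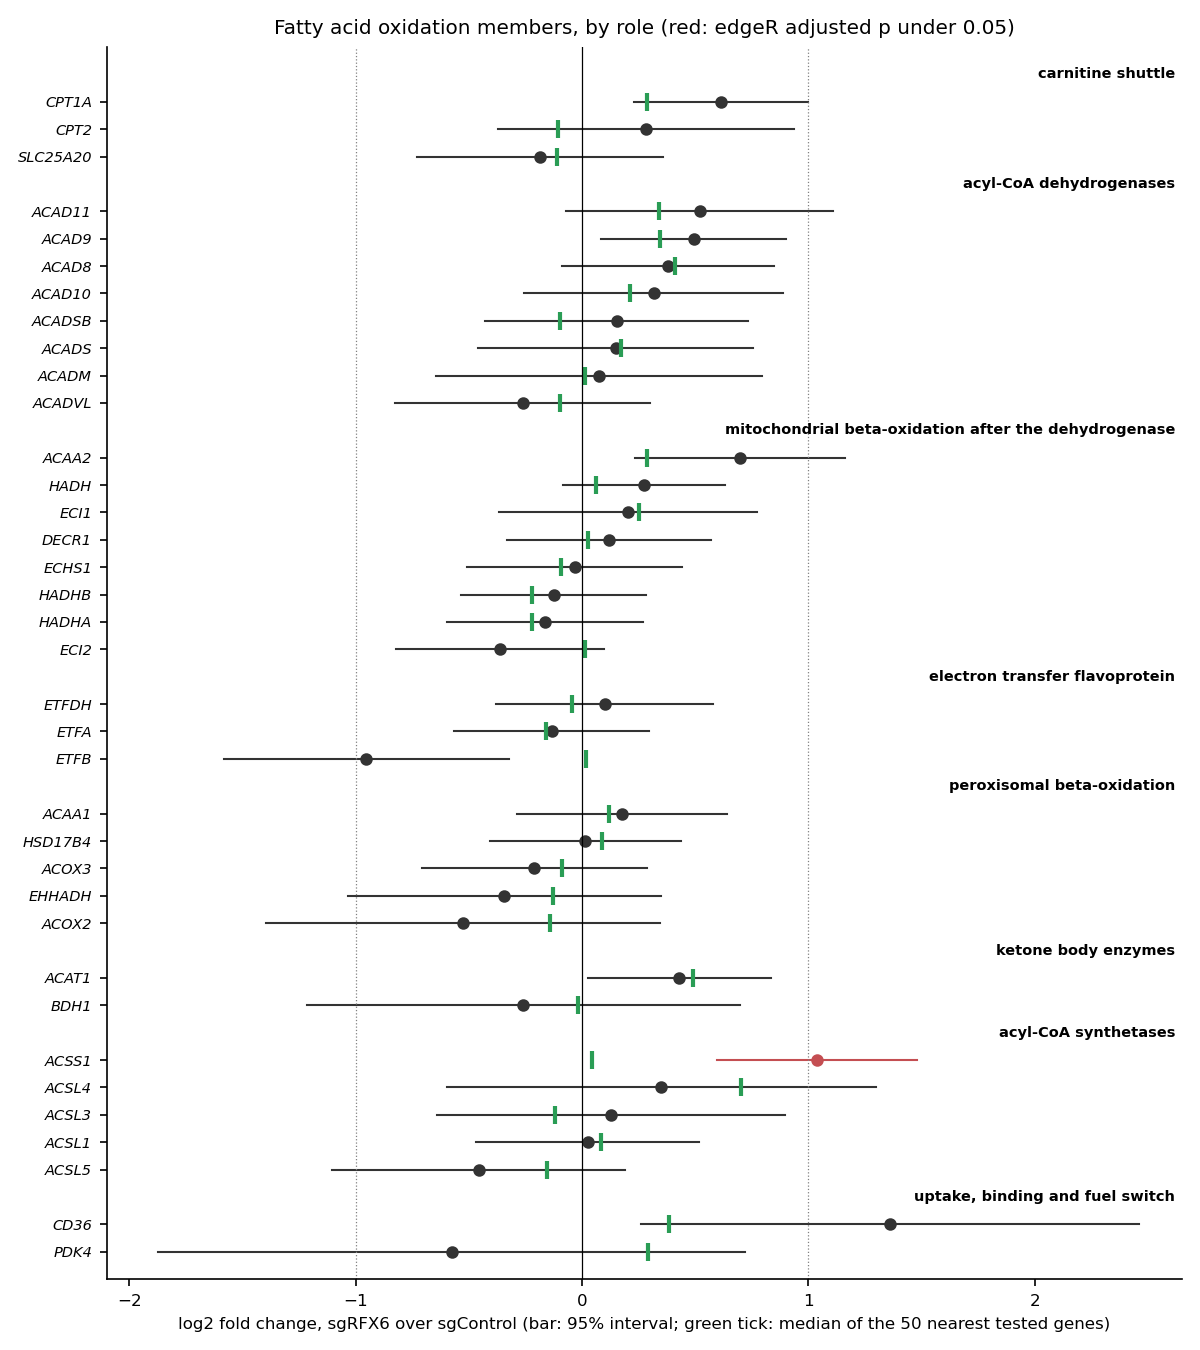
Log2 fold change of each tested member (point) with its 95% interval (bar), ordered by role, on a linear log2 axis with dotted lines at 2-fold. Green ticks give the median over the 50 tested genes closest on the chromosome, and only ACSS1, in red, passed an adjusted p of 0.05.

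Other tools called more members and more genes. DESeq2 called 3 members, CPT1A, ETFB and ACSS1, where it called 6.97% of all genes. The limma-voom fit with sample quality weights called 14 members (38.9%), where it called 31.1% of all genes, both counted in either direction. With each library's trend on GC content removed, edgeR called 5 members, CPT1A, ACAD9, ACAA2, ETFB and ACSS1 (13.9%), where it called 12.6% of all genes. Without sgRFX6 replicate 3 the median of the members was -0.06, against -0.02 over all genes in that fit, and 3 members were called, where 5.52% of all genes were.

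ACSS1 encodes the mitochondrial acetyl-CoA synthetase, which turns acetate into acetyl-CoA in the matrix. The gene lies at chr20:25006230-25058980 on the minus strand. Its levels were 33.4, 37.9 and 35.7 CPM in sgControl and 83.6, 77.7 and 58.5 CPM in sgRFX6. Every sgRFX6 library lay above every sgControl library, and the lowest of them was replicate 3. The log2 fold change was 1.04 (SE 0.19, edgeR adjusted p = 0.0214), or 2.05-fold between the means, and the 50 nearest tested genes had a median of 0.04. The call held in 10 of 15 alternative fits. It was lost without any 1 of the 3 sgControl libraries, sgRFX6 replicate 1 or sgRFX6 replicate 2, with edgeR adjusted p between 0.0547 and 0.118 and log2 fold changes between 0.93 and 1.08, and it held without sgRFX6 replicate 3 (adjusted p = 0.00687).

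The other synthetases, ACSL1, ACSL3, ACSL4 and ACSL5, attach coenzyme A to long-chain fatty acids. In edgeR none of the 4 passed an adjusted or unadjusted p of 0.05, where 3.74% and 15.6% of all genes did. ACSL1, the main form of liver, was at 66.6 ± 8.46 CPM in sgControl against 67.7 ± 15.7 CPM in sgRFX6 (SD, n = 3), a log2 fold change of 0.02 with a 95% interval from -0.47 to 0.52. ACSL5 was at 53.9 ± 18.0 and 39.2 ± 9.78 CPM, with an interval from -1.10 to 0.19. ACSL4, which prefers arachidonate, was at 45.6, 29.8 and 34.7 CPM in sgControl and at 36.5, 22.8 and 80.8 CPM in sgRFX6. ACSL3, found on lipid droplets and the endoplasmic reticulum, was at 128, 98.3 and 90.3 CPM and at 96.8, 66.2 and 182 CPM. For both ACSL3 and ACSL4, sgRFX6 held the lowest and the highest library of all 6, so the spread within it was wider than any difference between the groups.

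Per kilobase of exon, ACSL3 held the largest share of the 4 long-chain synthetases in 5 of the 6 libraries, between 28.9% and 37.5% of their sum in sgControl and between 32.0% and 41.6% in sgRFX6. The exception was sgControl replicate 2, where ACSL5 held 37.4%. ACSL5 held between 22.7% and 37.4% in sgControl and between 16.5% and 26.6% in sgRFX6. Exon lengths joined all annotated exons of a gene, so the shares depend on the annotation too.

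CPT1A is the liver form of carnitine palmitoyltransferase 1, which commits long-chain acyl-CoAs to oxidation and is inhibited by malonyl-CoA. It lies at chr11:68754620-68844410 on the minus strand. Its levels were 215, 197 and 230 CPM in sgControl and 361, 342 and 279 CPM in sgRFX6. The groups were well apart, with sgRFX6 replicate 3 again the lowest of its group, and the means differed 1.53-fold. The log2 fold change was 0.61 (SE 0.17, edgeR adjusted p = 0.0973), which missed the threshold, while the median of its 50 nearest tested genes was 0.28. Once that regional median was subtracted, the log2 fold change was 0.36 (adjusted p = 0.365). Without sgRFX6 replicate 3 it was 0.72 (adjusted p = 0.0224).

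In edgeR neither other shuttle member passed an adjusted or unadjusted p of 0.05, where 3.74% and 15.6% of all genes did. CPT2, which returns the acyl group to coenzyme A inside mitochondria, was at 29.6 ± 11.1 CPM and 36.0 ± 6.81 CPM in the sgControl and sgRFX6 groups, and SLC25A20, the carnitine-acylcarnitine carrier, at 18.5 ± 3.85 and 16.3 ± 2.28 CPM (SD, n = 3). Their groups overlapped, and limma-voom called CPT2. Of the other CPT1 genes, CPT1B, the muscle form, was at 8.14, 11.8 and 8.25 CPM in sgControl and 7.05, 7.98 and 6.09 CPM in sgRFX6, with a log2 fold change of -0.42 (edgeR adjusted p = 0.516). CPT1C, the brain form, had at most 1.34 CPM in any library and was not tested.

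**Figure D2:**
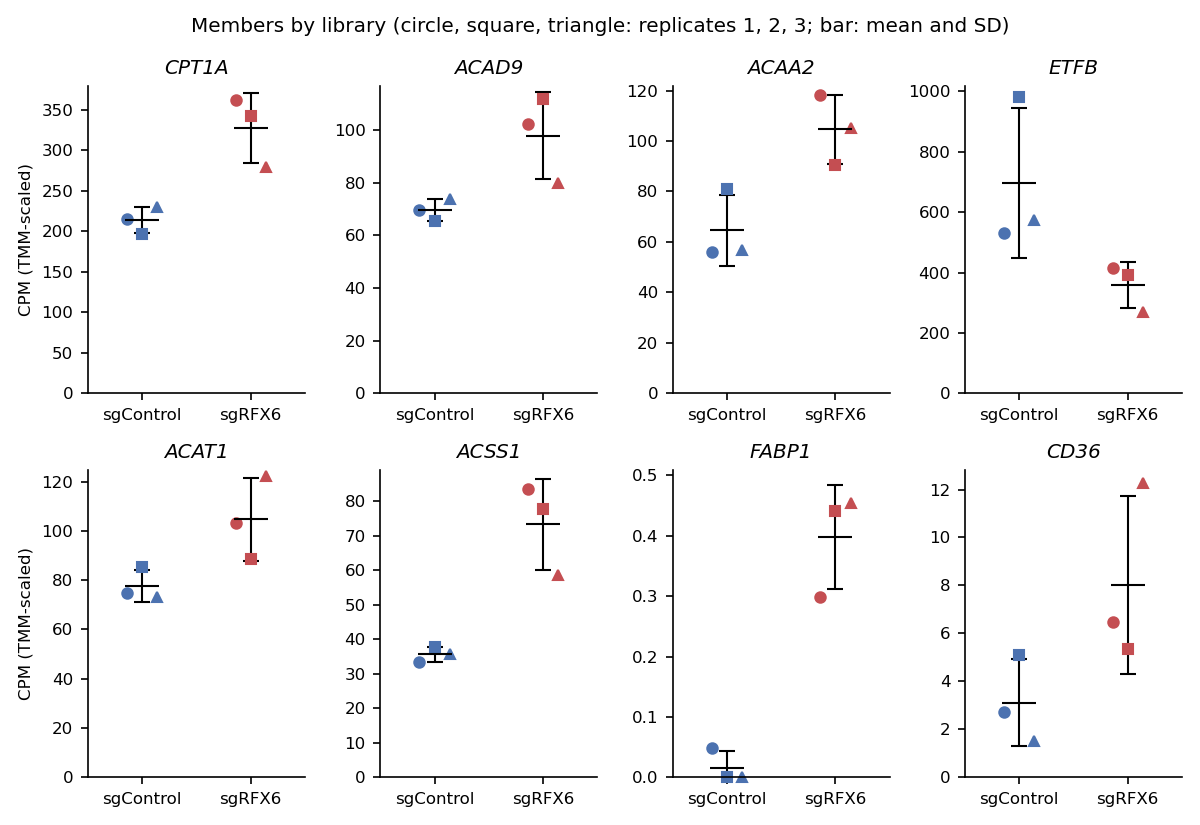
Level of the 8 members named by the rule in each library (CPM on a linear axis from 0), with circle, square and triangle for replicates 1, 2 and 3 and a bar for the mean and SD of 3 libraries. In ACSS1 the sgControl libraries lie between 33.4 and 37.9 CPM and the sgRFX6 libraries between 58.5 and 83.6 CPM, whereas in CD36 the groups nearly touch.

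The acyl-CoA dehydrogenases catalyse the first step of each turn. Of the 8 tested, 7 had a log2 fold change above 0, with a median of 0.23 against 0.02 over all genes. At the adjusted threshold edgeR and DESeq2 called 0 of them and limma-voom 5, and 1 passed an unadjusted p of 0.05 in edgeR. Of all genes, edgeR called 3.74%, DESeq2 6.97% and limma-voom 31.1%, and 15.6% passed that unadjusted p in edgeR. The medians of the dehydrogenases' 50 nearest genes were also above 0 for 6 of the 8, with a median of 0.19. ACAD9, which oxidises long chains and also assembles respiratory complex I, was at 69.7, 65.3 and 73.6 CPM in sgControl and at 102, 112 and 79.7 CPM in sgRFX6. Its groups did not overlap, with a log2 fold change of 0.49 (SE 0.18, edgeR adjusted p = 0.212), beside a median of 0.34 for its 50 nearest genes on chromosome 3. With that median subtracted it was 0.18 (adjusted p = 0.801). Without sgRFX6 replicate 3 it was 0.63 (edgeR adjusted p = 0.0384), and with the GC trend removed 0.53 (adjusted p = 0.0224).

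The dehydrogenase with most RNA was ACADVL, for very long chains, at 523 ± 146 CPM in sgControl against 436 ± 93.3 CPM in sgRFX6 (SD, n = 3), and its interval ran from -0.83 to 0.30 on the log2 scale. The medium-chain enzyme ACADM was at 13.3 ± 1.99 and 14.0 ± 5.61 CPM, and the short-chain enzyme ACADS at 20.1 ± 3.29 and 22.3 ± 6.15 CPM. Their groups overlapped. ACADSB, of isoleucine breakdown, was at 14.3 ± 0.595 and 15.9 ± 4.70 CPM, and ACAD8, of valine breakdown, at 22.9 ± 2.59 and 29.9 ± 3.67 CPM. ACAD8 and ACAD11 did not overlap between groups and passed no threshold in edgeR, while limma-voom called both, ACAD11 being at 7.50 ± 1.30 and 10.8 ± 2.19 CPM. The log2 fold change was 0.38 for ACAD8 and 0.52 for ACAD11, beside medians of 0.41 and 0.34 for their 50 nearest genes. ACAD10 was at 30.7 ± 8.74 and 38.2 ± 6.44 CPM.

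After the dehydrogenase, 8 members carry out the remaining steps of the mitochondrial spiral. At the adjusted threshold edgeR and DESeq2 called 0 of them and limma-voom 3, and 1, ACAA2, passed an unadjusted p of 0.05 in edgeR. Of all genes, edgeR called 3.74%, DESeq2 6.97% and limma-voom 31.1%, and 15.6% passed that unadjusted p in edgeR. The mitochondrial trifunctional protein is built from HADHA, which hydrates and dehydrogenates long chains, and HADHB, which cleaves them. HADHA was at 264 ± 49.5 CPM in sgControl and 236 ± 30.7 CPM in sgRFX6, and HADHB at 85.2 ± 15.9 and 78.1 ± 1.77 CPM (SD, n = 3). These genes start head to head on chromosome 2, with 306 bases between their RefSeq starts at 26244632 (minus strand) and 26244939 (plus strand). The ratio of HADHA to HADHB CPM was 3.18, 3.10 and 3.01 in sgControl and 3.37, 2.76 and 2.90 in sgRFX6 (two-sided exact permutation p = 0.6, n = 3 in each group). With 3 against 3 libraries this test cannot give a p below 0.1.

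ACAA2, the last enzyme of the medium-chain spiral, a 3-ketoacyl-CoA thiolase, was at 56.1, 80.9 and 56.6 CPM in sgControl and at 118, 90.6 and 105 CPM in sgRFX6. The groups did not overlap and the highest sgControl library was replicate 2. This gave a log2 fold change of 0.70 (SE 0.20, edgeR adjusted p = 0.117), 1.62-fold between means, with a median of 0.28 for its 50 nearest genes on chromosome 18. With that median subtracted it was 0.44 (adjusted p = 0.437). HADH, the short-chain hydroxyacyl-CoA dehydrogenase, also did not overlap, at 74.9 ± 3.97 and 90.6 ± 7.98 CPM, with a log2 fold change of 0.27 and an interval from -0.08 to 0.63.

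The enoyl-CoA hydratase ECHS1 was at 148 ± 18.1 CPM in sgControl against 145 ± 33.7 CPM in sgRFX6 (SD, n = 3), a log2 fold change of -0.03 with an interval from -0.51 to 0.44. Among the auxiliary enzymes for unsaturated chains, the isomerase ECI1 was at 92.8 ± 20.5 and 107 ± 29.3 CPM, and the dienoyl-CoA reductase DECR1 at 33.1 ± 3.69 and 36.0 ± 4.84 CPM. ECI2, another isomerase, did not overlap in the lower direction, at 27.0 ± 3.65 and 21.0 ± 1.04 CPM, with an interval from -0.82 to 0.10.

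The electron transfer flavoprotein is a dimer of ETFA and ETFB, and ETFDH passes its electrons to ubiquinone. ETFB was the only member lower in sgRFX6 at an unadjusted p of 0.05. Its levels were 533, 983 and 573 CPM in sgControl and 414, 393 and 271 CPM in sgRFX6. The groups did not overlap, and sgControl replicate 2 was far above the rest of its group. ETFB had a log2 fold change of -0.95 (SE 0.28, edgeR adjusted p = 0.115), the mean level in sgRFX6 was 0.516 times that in sgControl, and the 50 neighbours on chromosome 19 had a median of 0.02. Without sgControl replicate 2 the log2 fold change was -0.62 (adjusted p = 0.241). The ETFB gene overlaps 3 other annotated genes, and the strand setting of the counting is not given in the sources used here.

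Its partner ETFA was at 103 ± 21.9 CPM in sgControl and 94.1 ± 6.72 CPM in sgRFX6, with a log2 fold change of -0.14 and an interval from -0.57 to 0.30. ETFDH was at 33.7 ± 4.11 and 36.2 ± 6.41 CPM. The ratio of ETFB to ETFA CPM was 5.67, 7.66 and 6.54 in sgControl and 4.40, 4.50 and 2.69 in sgRFX6, so that the groups did not overlap (two-sided exact permutation p = 0.1, the smallest that 3 against 3 libraries allow). This ratio was chosen after the values of ETFB had been seen. Replicate 3 of sgRFX6 had the lowest ratio.

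In the peroxisomal spiral, 0 of 5 members were called by edgeR, DESeq2 or limma-voom, 0 passed an unadjusted p of 0.05 in edgeR, and all 5 overlapped between groups. Of all genes, edgeR called 3.74%, DESeq2 6.97% and limma-voom 31.1%, and 15.6% passed that unadjusted p in edgeR. Without overlap, 12.0% of all genes were higher and 11.2% lower. The branched-chain oxidases ACOX2 and ACOX3 were at 3.52 ± 1.17 and 19.7 ± 1.70 CPM in sgControl and at 2.45 ± 0.832 and 17.0 ± 2.64 CPM in the sgRFX6 group (SD, n = 3). ACOX3, the member with the X-box printed above, had a log2 fold change of -0.21 with an interval from -0.71 to 0.29. The bifunctional enzymes EHHADH and HSD17B4 were at 25.7 ± 6.39 and 60.6 ± 2.36 CPM in sgControl and at 20.2 ± 7.38 and 61.2 ± 11.0 CPM in sgRFX6, and the thiolase ACAA1 was at 89.0 ± 10.9 and 101 ± 22.1 CPM.

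Of the ketone body enzymes, 2 members were tested. ACAT1, the mitochondrial acetoacetyl-CoA thiolase, was at 74.8, 85.2 and 73.1 CPM in sgControl and at 103, 88.7 and 122 CPM in sgRFX6. The groups did not overlap, although sgRFX6 replicate 2 and sgControl replicate 2 were close. ACAT1 had a log2 fold change of 0.43 (SE 0.18, edgeR adjusted p = 0.283), and the median of the 50 nearest genes on chromosome 11 was 0.49. Once this median was subtracted the sign turned, with a log2 fold change of -0.03 (adjusted p = 0.983). BDH1, which reduces acetoacetate to beta-hydroxybutyrate, was near 1 CPM in both groups, at 1.01 ± 0.130 and 0.851 ± 0.346 CPM (SD, n = 3).

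CD36, a fatty acid translocase of the plasma membrane, had the largest positive log2 fold change of the members, 1.36, and one of the widest errors (SE 0.48, edgeR adjusted p = 0.197). Its levels were 2.75, 5.10 and 1.51 CPM in sgControl and 6.46, 5.34 and 12.3 CPM in sgRFX6. The groups did not overlap by a small margin, since sgControl replicate 2 and sgRFX6 replicate 2 were at nearly the same level. The median of the 50 nearest genes on chromosome 7 was 0.38. With that median subtracted, the log2 fold change of CD36 was 1.02 (edgeR adjusted p = 0.494), and with the GC trend removed 1.15 (adjusted p = 0.141). Without sgRFX6 replicate 3 it was 0.91 (edgeR adjusted p = 0.290), and without sgControl replicate 2 it was 1.92 (adjusted p = 0.0966). PDK4, a kinase that shuts off pyruvate dehydrogenase in favour of fatty acids, was at 3.95, 13.3 and 3.11 CPM in sgControl and 4.02, 2.77 and 6.81 CPM in sgRFX6. Its log2 fold change of -0.58 had an interval from -1.87 to 0.72, and the highest library was again sgControl replicate 2.

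FABP1, the liver fatty acid binding protein, which is abundant in normal hepatocytes, had few counts. It had 1, 0 and 0 counts in the sgControl libraries and 6, 7 and 10 counts in the sgRFX6 libraries. Taking 3 counts per library as the floor for sgControl, its mean level was at least 3.01-fold higher in sgRFX6. Without the filter on low counts, edgeR gave it an adjusted p of 0.0395. The level stayed below 0.5 CPM in all 6 libraries.

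Per kilobase of exon, the members spanned a wide range of levels. The length joined all annotated exons of a gene, 6526 bases for ETFB and 1617 for ECHS1, so the order of genes depends on the annotation too. ACADVL and ETFB led in sgControl, at 107 ± 30.1 and 107 ± 38.1 CPM per kb, followed by ECHS1 at 91.8 ± 11.2 and HADHA at 60.2 ± 11.3 CPM per kb (SD, n = 3). In sgRFX6, ECHS1 at 89.7 ± 20.9 and ACADVL at 89.6 ± 19.2 CPM per kb could not be told apart, and ETFB at 55.1 ± 11.9, HADHA at 53.7 ± 6.998 and CPT1A at 49.9 ± 6.57 CPM per kb came next, each within the spread of its neighbour. In sgControl CPT1A was at 32.6 ± 2.51 CPM per kb. The lowest were BDH1, at 0.111 ± 0.0142 and 0.0934 ± 0.0380 CPM per kb, and FABP1.

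**Figure D3:**
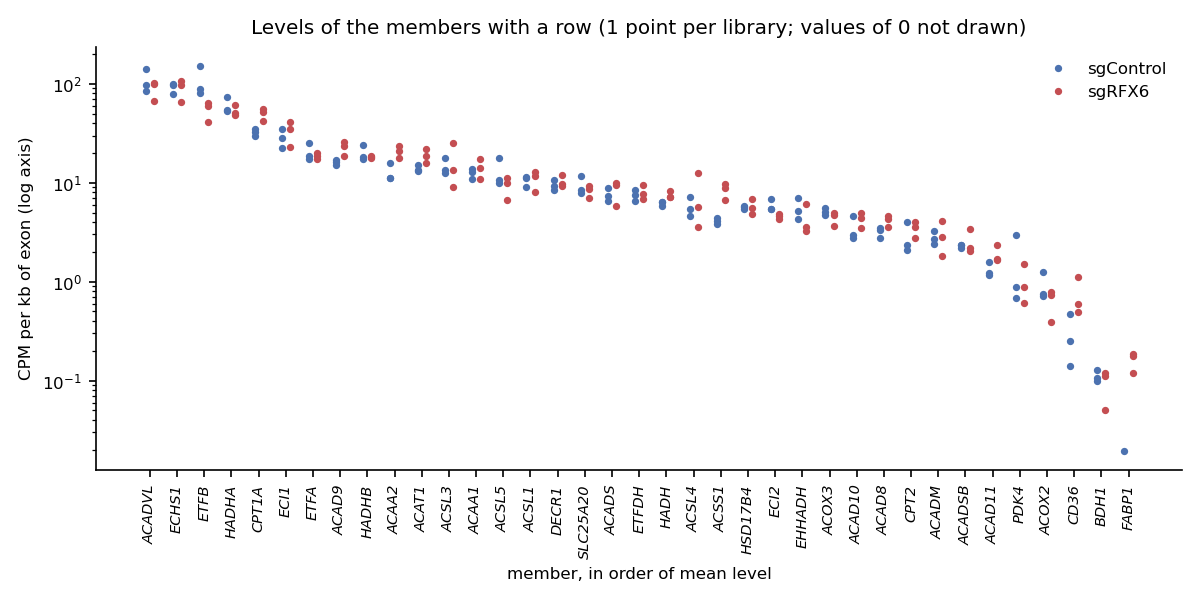
Level of the 37 members with a row in CPM per kb of exon (log axis), 1 point per library, in order of the mean level over both groups. ACADVL and ECHS1 are at the top near 90 CPM per kb, and PDK4, ACOX2, CD36, BDH1 and FABP1 are at the low end.

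Within sgRFX6 the members varied between libraries in step with their base composition, and within sgControl they did so weakly or not at all. Each library's log2 CPM was set against the mean of the other libraries of its group, and the difference was ranked against the GC content of the members' exons. Across the 36 members, which range from 38.5% to 64.3% GC, Spearman's rho was -0.94 in sgRFX6 replicate 3, 0.90 in sgRFX6 replicate 2 and 0.74 in sgRFX6 replicate 1, and -0.36, 0.03 and 0.32 in sgControl replicates 1, 2 and 3. These describe members that share a library, and members are not replicates. The deviations within a group are also tied to each other, since 1 library that differs moves the others the opposite way, so its 3 values are not independent. Over all genes the same measure, taken against the mean of the whole group, was 0.65, 0.74 and -0.86 in sgRFX6 replicates 1, 2 and 3. In sgControl replicates 1, 2 and 3 it was -0.58, 0.41 and 0.05, so over all genes sgControl libraries varied with base composition too.

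In sgRFX6 replicate 3 the members lowest in GC stood highest, ACSL4 by 1.48, ACSL3 by 1.19 and CD36 by 1.05 on the log2 scale, and those highest in GC stood low, ACADS by -0.76 and ECI1 by -0.70. The lowest there were BDH1 by -1.05 and ACOX2 by -0.92, at 56.7% and 54.5% GC. ACSS1, at 57.9% GC, was at -0.46 there, and CPT1A, at 52.4% GC, at -0.33. In sgControl the library that stood apart was replicate 2, which had the highest level of its group for 26 of the 36 members, among them PDK4, 1.89 above the other libraries on the log2 scale, and ETFB, 0.83 above. The part of base composition in the difference between the groups was not tested for single members beyond the fit with the GC trend removed.

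**Figure D4:**
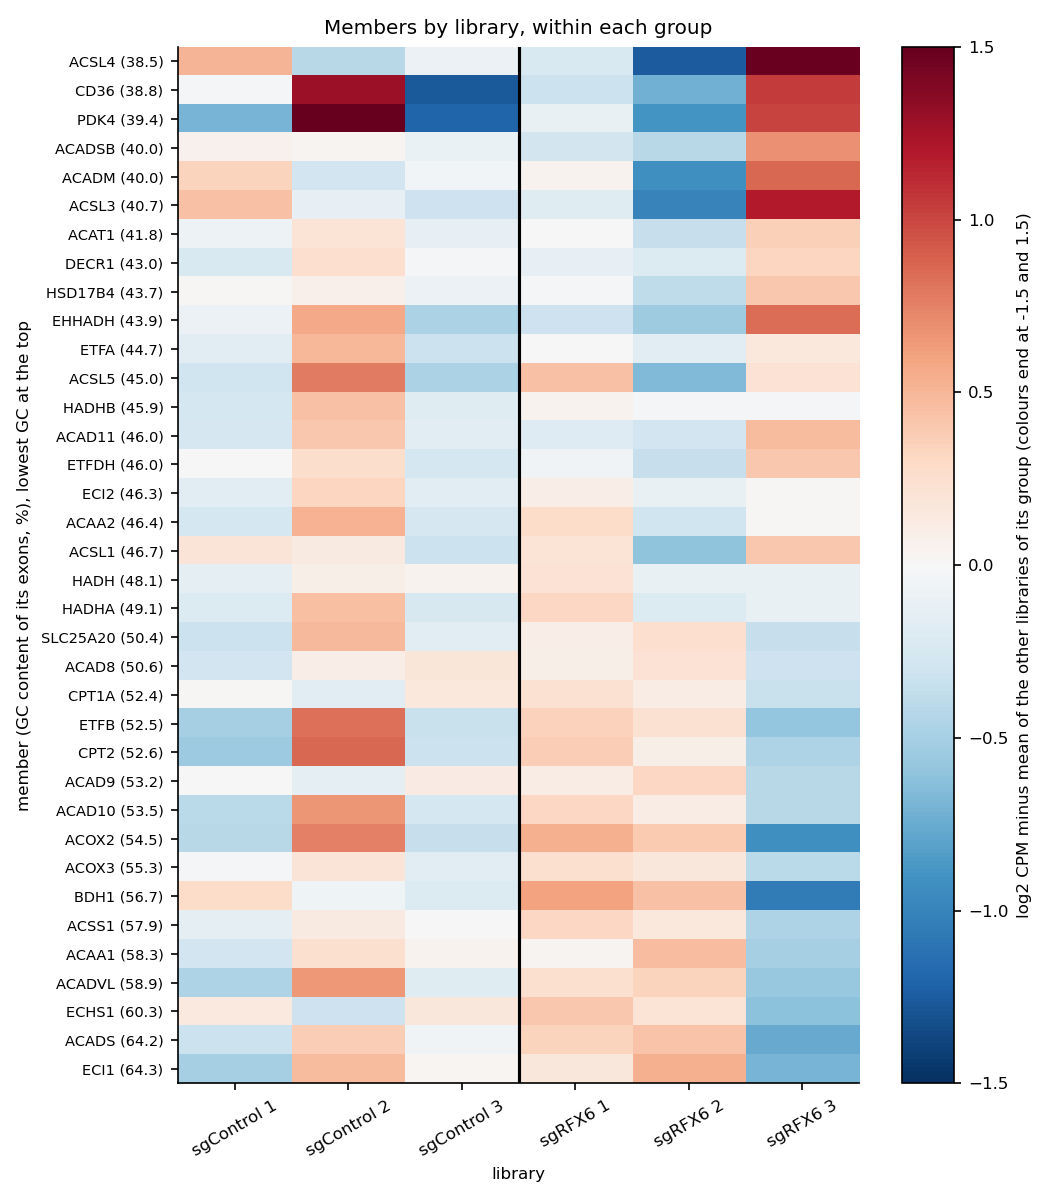
Log2 CPM of each tested member in each library minus the mean of the other 2 libraries of its group (colour, red higher and blue lower), with members ordered from the lowest GC content of their exons (top) to the highest (bottom). The column of sgRFX6 replicate 3 runs from red at the top to blue at the bottom and that of sgRFX6 replicate 2 the other way, and sgControl replicate 2 is red for most members.

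Around the members, 97 other genes of the pathway were listed, and 77 of them were tested. Of these, 44 had a log2 fold change above 0 and 33 below, with a median of 0.07, and 1 was called by edgeR, VNN1. At an unadjusted p of 0.05, 15 of 77 were higher and 4 lower, where 15.6% of all genes passed in either direction. The groups did not overlap for 16 that were higher, where 12.0% of all genes were, and for 8 that were lower, where 11.2% were.

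VNN1 encodes vanin, a pantetheinase that releases a precursor of coenzyme A and is a known PPAR alpha target in liver. Its levels were 14.5, 12.1 and 14.4 CPM in sgControl and 44.2, 52.2 and 83.5 CPM in sgRFX6. The groups were far apart, 4.39-fold between means, and the sgControl libraries hardly differed. The log2 fold change was 2.14 (SE 0.27, edgeR adjusted p = 0.00401), and it was called in 15 of 15 alternative fits.

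Of the regulators, PPARA, which encodes PPAR alpha, was at 33.8, 67.8 and 36.8 CPM in sgControl and 45.2, 39.6 and 44.6 CPM in sgRFX6, with a log2 fold change of -0.10 and an interval from -0.73 to 0.53. Here too sgControl replicate 2 stood alone, and without it the log2 fold change was 0.29 (edgeR adjusted p = 0.580). PPARGC1A, the coactivator that raises oxidation in fasted liver, had 1 count in 1 library and 0 in the others. Of the targets outside oxidation, PLIN2, which coats lipid droplets, was at 101, 114 and 101 CPM in sgControl and 158, 145 and 128 CPM in sgRFX6, without overlap, at a log2 fold change of 0.44 (SE 0.16, edgeR adjusted p = 0.205). ANGPTL4, a secreted inhibitor of lipoprotein lipase, overlapped, at 7.71, 24.7 and 7.08 CPM and at 13.5, 2.83 and 5.22 CPM, and its log2 fold change of -0.87 was -0.04 without sgControl replicate 2 and -1.70 without sgRFX6 replicate 1.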

How the data were processed

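Total RNA was isolated with Trizol and sequenced by a company on an Illumina instrument, and the authors deposited 1 table of raw counts per gene, with 1 column per library. Genome builds GRCh38 and hg38 appear in the submitters' processing notes. The aligner, the counting program and its strand setting are not given in the sources used here. A row without a gene name, at most 9.17e-05% of a library, was left out.

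The deposited counts were tested with edgeR 4.0.16 in R 4.3.3 (filterByExpr, minimum count 10 and minimum total 15; TMM; quasi-likelihood test of sgRFX6 against sgControl over 6 libraries, no covariates), and p-values were adjusted over 12839 genes (Benjamini-Hochberg) and called below 0.05. DESeq2 1.42.0 and limma 3.58.1 were alternatives, with other scalings and filters, a replicate block, removal of a GC trend (loess span 0.3, for genes with known GC content), subtraction of the median of the 50 nearest tested genes, and leaving out each library. Fits were tested on simulated data. These had less spread between replicates than the real libraries and no trend on GC content, so the check does not cover those features. Replicates of a group differed by more than sampling noise (chi-square per degree of freedom 16.2 to 117). Deviations from other libraries used a pseudocount of 0.1 CPM. Positions, exon lengths and GC content came from GENCODE 29. Counting floors of 3 counts cover counting error only.

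Full values were given to members with adjusted p under 0.05, with unadjusted p under 0.05 and no overlap between groups, or at 3 counts or fewer in every library of a group, to CPT1B, CPT1C, PPARA, PPARGC1A, ANGPTL4 and PLIN2, to other pathway genes with adjusted p under 0.05, and to RFX6. Some other genes that the rule names are not reported here. The members and lists were chosen with earlier results of these data known.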

Additional observations from a re-analysis of the deposited data

How the results depend on the processing

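The number of genes called was 480 with edgeR, 895 with DESeq2, 3998 with limma-voom, 1532 with the GC trend removed, and between 212 and 718 when 1 library was left out. Of the members, edgeR called 1, DESeq2 3, limma-voom 14, the fit without a filter on low counts 2 (ACSS1 and FABP1), the fit with the GC trend removed 5, and the fits without 1 library between 0 and 3. Of the other pathway genes, edgeR called 1, DESeq2 6, limma-voom 32 and the fit with the GC trend removed 11, and the fits without 1 library between 1 and 4. The median log2 fold change of the members lay between -0.059 and 0.18 when 1 library was left out. RFX6 had a log2 fold change of -0.96 in limma-voom (adjusted p = 0.00274). The sign turned for ACAT1 with the regional median subtracted (-0.025), for PPARA in limma-voom (0.24) and for ANGPTL4 in limma-voom (0.31). Without 1 library the log2 fold change lay between -0.28 and 0.29 for PPARA. Among the members, 22 log2 fold changes were above 0 and 14 below with edgeR, 17 and 19 without sgRFX6 replicate 3, and 25 and 11 in limma-voom. The causes of these shifts were not tested.

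Replicate numbers were shared between the groups, but same-numbered libraries did not deviate together (Pearson's r -0.41, 0.17 and -0.09 across genes), and 0 of 6 libraries correlated best with their own number, so the numbers were not taken as pairs. With the replicate block, 648 genes, 2 members (ETFB and ACSS1), and 3 other pathway genes were called.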

Other observations

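Beside the main spiral, 4 of 11 tested genes of the peroxisomal list were higher in sgRFX6 at an unadjusted p of 0.05 without overlap, where 12.0% of all genes were higher without overlap and 15.6% passed that p in either direction, and they were singled out after their values were seen. DECR2, a peroxisomal dienoyl-CoA reductase, was at 55.2 ± 5.62 CPM in sgControl and 96.9 ± 25.04 CPM in sgRFX6, and AMACR, a racemase for branched acyl-CoAs, at 9.63 ± 1.59 and 17.4 ± 2.20 CPM (SD, n = 3). PHYH, the phytanoyl-CoA hydroxylase, was at 9.92 ± 0.416 and 14.9 ± 2.85 CPM, and PECR, a trans-enoyl-CoA reductase, at 9.37 ± 2.46 and 14.5 ± 0.716 CPM. None of the 4 passed the adjusted threshold in edgeR, where their adjusted p lay between 0.0936 and 0.268. DESeq2 called DECR2 and AMACR. The median of the 50 nearest tested genes was 0.35 for DECR2, -0.03 for AMACR, -0.22 for PHYH and -0.15 for PECR.

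Among other genes singled out in the same way were G0S2, an inhibitor of the lipase ATGL, at 12.5 ± 3.15 and 22.2 ± 1.67 CPM, and SIRT3, a mitochondrial deacetylase, at 16.03 ± 2.37 and 26.0 ± 4.64 CPM. Among those lower without overlap were SLC27A2, a very long-chain acyl-CoA synthetase and transporter, at 1.65 ± 0.329 and 0.676 ± 0.0785 CPM, and ACSM5, a medium-chain synthetase, at 2.46, 11.0 and 2.94 CPM in sgControl and 1.99, 1.07 and 0.818 CPM in sgRFX6. The edgeR adjusted p of these 4 genes lay between 0.0953 and 0.169. Their 50 nearest tested genes had a median of -0.003 for G0S2, 0.40 for SIRT3, 0.07 for SLC27A2 and 0.41 for ACSM5. Further listed genes met the same rule in each direction and are not printed here. Over all genes, 12.0% were higher and 11.2% lower without overlap, and 15.6% passed an unadjusted p of 0.05 in edgeR.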
